A study of Mus musculus with 18 samples.

Results

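The genes of the Wnt pathway were followed across progenitor and neuron types of the E14 mouse forebrain in Myt1l WT, Het and KO embryos. The set held 47 of the 55335 genes counted and was chosen by symbol: 8 ligands, 10 frizzled receptors, the 2 LRP co-receptors, 3 kinase-type receptors, 3 dishevelled genes, 4 genes of the destruction complex, Ctnnb1, 4 TCF/LEF transcription factors, 5 secreted modulators, 4 R-spondin and LGR genes, 2 E3 ligases and Nkd1. Each symbol matched 1 row of the count matrices. The matrices came from single-nucleus RNA sequencing with the Scale Biosciences combinatorial barcoding kit. Forebrains of 3 embryos per genotype (9 animals) were flash frozen, and nuclei of each animal were counted in 2 runs, giving 18 libraries.

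All animals carried the MYT1L S710fsX line on a C57BL/6 background, sexes were mixed, and embryos came from 3 litters of Het by Het crosses. WT had no copy, Het 1 copy and KO 2 copies of the frameshift allele in every cell, and no group had any other treatment. MYT1L is a zinc finger transcription factor of postmitotic neurons that has been described as a repressor of Wnt signalling, among other programs, and KO embryos die at birth. In the labels, all 9 libraries of run 1 were tagged WT while their titles named WT, Het or KO, and groups were taken from the titles.

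Wnt ligands are secreted proteins that bind frizzled receptors together with LRP5 or LRP6. In the canonical branch this stops the destruction complex of AXIN, APC and GSK3B from degrading β-catenin, which then enters the nucleus and switches on targets through TCF and LEF factors. Axin2, Lef1, Nkd1, Notum, Znrf3 and Rnf43 are widely used feedback targets of that branch, R-spondins raise signalling by clearing ZNRF3 and RNF43 from the membrane, and Wnt5a with ROR2 and RYK signals largely without β-catenin. In the embryonic forebrain the cortical hem, a signalling centre at the dorsal midline, is a main source of Wnt ligands, and canonical signalling keeps radial glia, the stem cells of the cortex, dividing.

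After filtering, 194628 of 261143 nuclei remained, between 14801 and 26064 per animal, and the deposited totals ran from 25300676 to 93334845 UMIs per library. Nuclei were clustered without the Wnt genes and named by marker genes. The classes with enough nuclei for a test in every animal were radial glia-like (29940 nuclei), excitatory intermediate progenitor-like (23950), excitatory neuron-like (53767), inhibitory progenitor-like (8366), inhibitory neuron-like (54415) and Cajal-Retzius-like nuclei (2003). Cortical hem-like (152) and choroid plexus-like nuclei (142) were described without a test, and 20625 nuclei stayed unnamed. Of 741 nuclei of a diencephalic neuron-like class, 740 came from Het 1. That class was kept out of the comparisons. Within the inhibitory neuron-like class, 257 of 274 nuclei of 1 cluster came from Het 1, and another of 957 nuclei had 366 from Het 1 and 281 from KO 1. An intermediate progenitor-like cluster of 849 nuclei had 160 from WT 1, 166 from Het 1 and 207 from KO 1. Each other animal gave it 17 to 72. Results that rested on Het 1 are given with and without it. Libraries of different animals shared 3429 cell barcodes, and both runs of an animal shared 311. A loss of Myt1l RNA in KO could not serve to check the labels, since the allele is a frameshift and not a deletion. In excitatory neuron-like nuclei Myt1l stood at 1940, 2217 and 2100 CPM (UMIs of the gene scaled to a total of 1000000 per animal and class) in WT, 2240, 2484 and 2396 CPM in Het and 2544, 2864 and 2608 CPM in KO. The genotypes named in the titles did not overlap, with KO highest and WT lowest. Both runs were summed in these values, so the tags of run 1 were not checked by themselves.

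The members had different places of highest expression. Levels are given as CPM of all UMIs of a class in an animal, as mean ± SD over the 9 animals, and are compared only within a gene. They lack the scaling between samples (TMM) that the tests below apply. Differences between classes read from CPM can therefore differ in size from the tested ones, and small ones may not remain. Of the 47 members, 3 did not reach a mean of 10 CPM in any of the 8 groups: Notum, which encodes an enzyme that inactivates Wnt ligands, and the receptors Fzd4 and Fzd5. Fzd5 was counted mainly in unnamed clusters, one led by Otx2os1, Ano1 and Otx2 that held 30.6% of its UMIs and one led by Egfr, Otx2os1 and Lrp2 that held 28.2%. These clusters, of 4379 and 7102 nuclei, each had 9 of 10 radial glia markers raised over the other nuclei. They also had 5 and 6 of 8 inhibitory progenitor markers raised. Neither was part of the radial glia-like class.

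**Figure D1:**
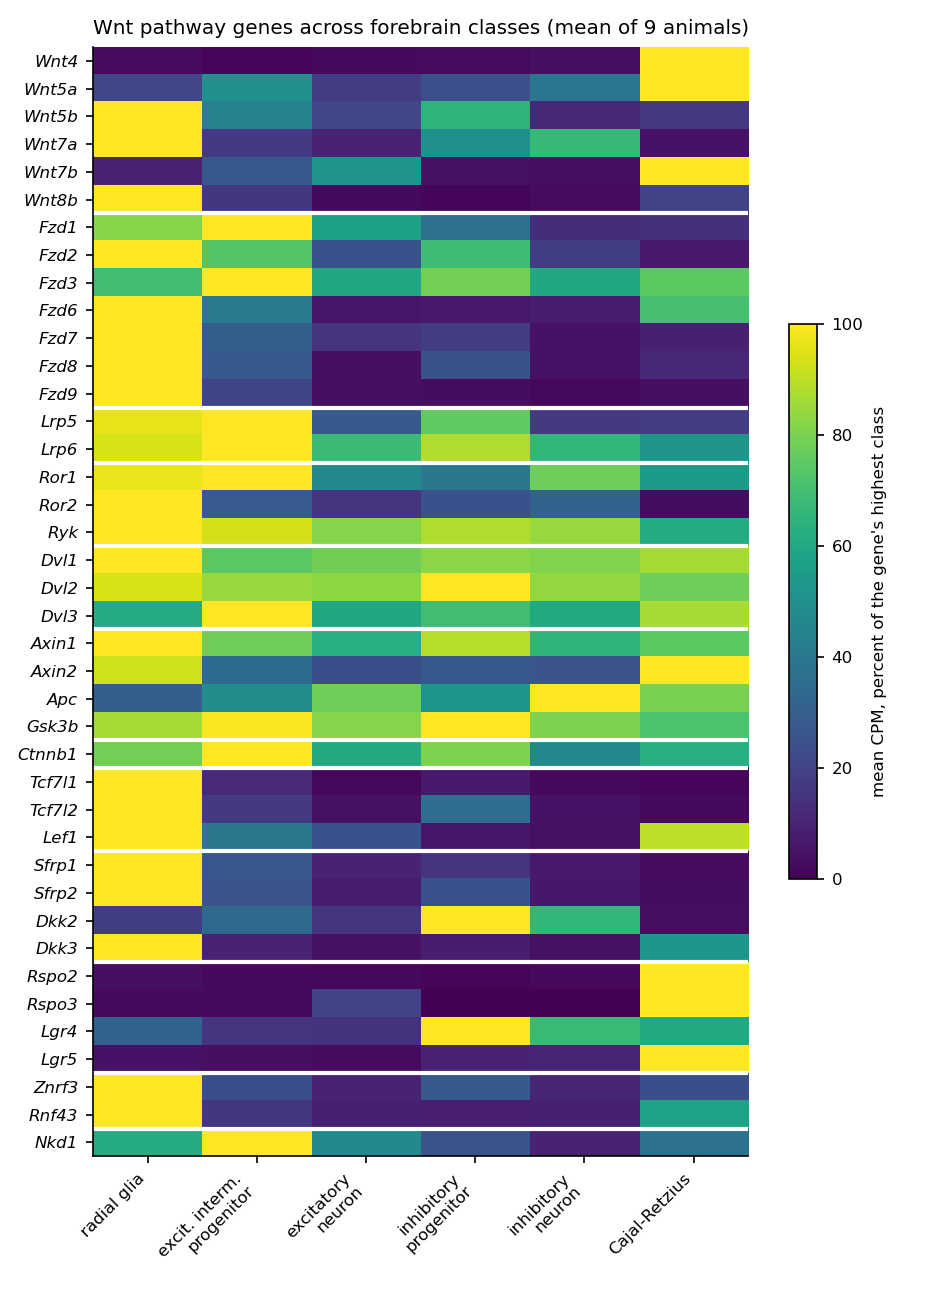
Heat map of the 40 Wnt pathway members with a mean of at least 5 CPM in one of the 6 tested classes of E14 forebrain nuclei. Each row is 1 gene, each column 1 class, and the colour gives the mean CPM over 9 animals as a percent of that gene's highest class, so rows can be compared in shape but not in level. White lines separate the roles. Most frizzled receptors, the TCF/LEF factors shown, Sfrp1, Dkk3 and both E3 ligases are brightest in radial glia-like nuclei, the R-spondins and Lgr5 in Cajal-Retzius-like nuclei, and Apc in inhibitory neuron-like nuclei.

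Among the ligands, Wnt7a and Wnt7b, close relatives that act through β-catenin, lay at opposite ends of the excitatory lineage. Wnt7a had 81.6 ± 5.75 CPM in radial glia-like, 13.6 ± 2.63 CPM in intermediate progenitor-like and 7.81 ± 1.29 CPM in excitatory neuron-like nuclei. Wnt7b had 19.4 ± 1.89, 53.5 ± 2.94 and 100.9 ± 15.8 CPM in the same order, and 196 ± 34.5 CPM in Cajal-Retzius-like nuclei, the early born Reln-expressing neurons of the marginal zone. In the inhibitory lineage Wnt7a had 41.0 ± 4.52 CPM in progenitor-like and 54.5 ± 7.88 CPM in neuron-like nuclei. Wnt7b had 8.62 ± 3.70 and 7.12 ± 3.29 CPM there. Wnt5b followed progenitors, with 76.6 ± 4.19 CPM in radial glia-like against 8.88 ± 0.773 CPM in inhibitory neuron-like nuclei.

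Of the frizzled receptors, Fzd8 marked the start of the lineage, with 129.7 ± 20.8 CPM in radial glia-like, 36.3 ± 4.79 CPM in intermediate progenitor-like and 4.67 ± 0.951 CPM in excitatory neuron-like nuclei. Fzd9 fell over the same steps, from 24.7 ± 6.61 CPM to 5.21 and 0.897 CPM. Fzd3, a receptor needed for axon guidance and planar cell polarity, was counted in all 6 tested classes at 274 ± 34.2 to 462 ± 65.8 CPM. The co-receptor Lrp5 had 59.3 ± 3.91 CPM in radial glia-like and 17.0 ± 1.24 CPM in excitatory neuron-like nuclei, whereas Lrp6 stayed between 142 and 273 CPM. Ror2, the Wnt5a receptor, had 180.2 ± 10.8 CPM in radial glia-like nuclei and between 5.76 and 57.4 CPM elsewhere among the tested classes.

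The intracellular core was shared more evenly. Gsk3b, the kinase that marks β-catenin for degradation, stayed between 451 and 629 CPM over the 6 tested classes, and Ctnnb1, which encodes β-catenin, had 257 CPM in radial glia-like, 199 CPM in excitatory neuron-like and 155 CPM in inhibitory neuron-like nuclei. Apc, the scaffold of the destruction complex, went the other way, from 272 ± 17.0 CPM in radial glia-like to 696 ± 14.9 CPM in excitatory neuron-like and 893 ± 25.3 CPM in inhibitory neuron-like nuclei.

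Among the 6 tested classes the TCF and LEF factors, the nuclear end of the pathway, had their highest means in radial glia-like nuclei. Tcf7l1, mainly a repressor among the TCF factors, had 441 ± 28.3 CPM in radial glia-like, 55.0 ± 10.4 CPM in intermediate progenitor-like and 9.92 ± 1.14 CPM in excitatory neuron-like nuclei. Tcf7l2 had 226 ± 12.2, 38.2 ± 11.4 and 10.5 ± 4.61 CPM. Outside the tested classes it was higher, at 538 ± 80.0 CPM in the unnamed cluster led by Otx2os1, Ano1 and Otx2. The unnamed cluster led by Egfr, Otx2os1 and Lrp2 had 418 ± 69.6 CPM of Tcf7l2. Lef1, mainly an activator, fell less, from 155 ± 14.6 to 62.4 ± 12.4 and 39.2 ± 9.51 CPM, and had 139.5 ± 34.6 CPM in Cajal-Retzius-like nuclei. In both inhibitory classes Lef1 was below 10 CPM on average, at 9.18 ± 2.01 CPM in progenitor-like and 7.22 ± 2.10 CPM in neuron-like nuclei.

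Of the secreted antagonists, Sfrp1 and Dkk3 were higher in radial glia-like than in excitatory neuron-like nuclei. Sfrp1, which binds Wnt ligands outside the cell, had 498 ± 169.7 CPM in radial glia-like and 48.2 ± 9.38 CPM in excitatory neuron-like nuclei, and Dkk3 had 55.5 ± 13.8 and 2.51 ± 0.662 CPM. Dkk3 was highest at the dorsal midline, at 513 ± 244 CPM in cortical hem-like and 613 ± 326 CPM in choroid plexus-like nuclei. Znrf3, an E3 ligase that removes frizzled receptors from the membrane, had 448 ± 18.4 CPM in radial glia-like, 107 ± 7.67 CPM in intermediate progenitor-like and 44.4 ± 5.37 CPM in excitatory neuron-like nuclei. Its relative Rnf43 held 25.6% of its UMIs in 1 radial glia-like cluster led by Cav1, Gm29521 and Tmem132c, at 73.8 ± 12.4 CPM. The agonist Rspo3 went the other way, with 19.4 ± 3.85 CPM in radial glia-like and 163 ± 10.2 CPM in excitatory neuron-like nuclei.

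The remaining members were even, low, at home outside the neural lineage or, like Lgr4 and Dkk2, uneven between progenitor types. The dishevelled genes, which carry the signal from the receptors, varied little over the 6 tested classes, with Dvl1 at 38.3 to 51.6 CPM, Dvl2 at 19.6 to 25.2 CPM and Dvl3 at 35.8 to 59.9 CPM. The scaffold Axin1 ran from 55.2 to 87.3 CPM and the receptor Ryk from 61.3 to 99.5 CPM. Wnt5a was spread over many types, at 31.4 ± 8.19 CPM in intermediate progenitor-like, 24.3 ± 4.58 CPM in inhibitory neuron-like and 281 ± 123 CPM in hem-like nuclei. Lgr4 had 38.2 ± 5.64 CPM in inhibitory progenitor-like against 11.9 CPM in radial glia-like nuclei, and the antagonist Dkk2 20.9 ± 6.93 against 3.89 CPM. In the unnamed cluster led by Otx2os1, Ano1 and Otx2 Lgr4 had 148 ± 16.3 CPM and 16.4% of its UMIs. The one led by Egfr, Otx2os1 and Lrp2 had 123 ± 21.5 CPM and 17.1%. Fzd6 was highest in an endothelial-like cluster of 62 nuclei (541 ± 338 CPM, 8 animals with such nuclei) and had 6.80 CPM in radial glia-like nuclei. Tcf7, best known from T cells, did not pass 3.91 CPM in the 6 tested classes, and Fzd7 had 16.6 ± 3.63 CPM in radial glia-like nuclei and at most 5.03 CPM in the others. Among these classes Wnt4 was highest in Cajal-Retzius-like nuclei, at 16.0 ± 4.65 CPM, which held 23.4% of its UMIs.

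The dorsal midline held ligands and agonists that were far lower in the other classes. In cortical hem-like nuclei, which expressed Lmx1a, Wnt8b had 914 ± 218 CPM, Wnt3a 407 ± 138 CPM and Rspo2 5802 ± 853 CPM. Choroid plexus-like nuclei, which expressed Ttr, had 418 ± 140, 385 ± 201 and 5654 ± 1840 CPM. The markers did not part these groups cleanly. Lmx1a was a leading gene of both, and both had 5 of 7 hem markers raised. Choroid plexus markers were raised at 7 of 7 in choroid plexus-like and 4 of 7 in hem-like nuclei. Wnt2b had 50.9 ± 30.4 CPM in hem-like and 114 ± 39.8 CPM in choroid plexus-like nuclei and stayed below 1 CPM on average in the 6 tested classes. In the 6 tested classes Wnt3a stayed between 0.450 and 2.93 CPM on average, and Rspo2 between 2.32 and 5.25 CPM except for 132 ± 33.6 CPM in Cajal-Retzius-like nuclei. An unnamed cluster of 170 nuclei led by Gmnc, Kcnk13 and Tgfbr3 had 52.4 ± 54.9 CPM of Wnt3a and 1214 ± 483 CPM of Rspo2. The lowest of the 9 animals had 187 CPM of Wnt3a in hem-like nuclei, above the highest value of any animal in the 6 tested classes, 5.14 CPM, but Wnt3a was at 0 in the choroid plexus-like nuclei of 1 animal. The hem-like and choroid plexus-like nuclei were 152 and 142 of 194628, yet they held 24.4% and 22.3% of all Wnt3a UMIs, 32.96% and 28.5% of Rspo2 UMIs and 16.9% and 7.22% of Wnt8b UMIs.

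Of the feedback regulators, Axin2 and Nkd1 were higher at the midline than in radial glia-like nuclei. Axin2, a negative regulator that is the usual readout of canonical signalling, had 217 ± 76.8 CPM in hem-like and 261 ± 102 CPM in choroid plexus-like nuclei, against 35.7 ± 3.80 CPM in radial glia-like and 9.22 ± 1.08 CPM in excitatory neuron-like nuclei. Nkd1, an inhibitor that binds dishevelled, had 83.9 ± 28.4 and 124 ± 76.2 CPM at the midline against 16.1 ± 3.23 CPM in radial glia-like nuclei, but was highest in the Gmnc-led cluster (301 ± 105 CPM) and the endothelial-like cluster (258 ± 153 CPM). Znrf3 had 723 ± 168 CPM in hem-like and 506 ± 164 CPM in choroid plexus-like nuclei, and Rnf43 had 27.7 ± 29.2 and 61.5 ± 51.4 CPM. Lef1 had 129 ± 58.2 and 131 ± 91.7 CPM, below its mean in radial glia-like nuclei, and Notum had 1 UMI in hem-like and 0 in choroid plexus-like nuclei. Cajal-Retzius-like nuclei, many of which arise in the hem, had 38.4 ± 7.05 CPM of Axin2, 808 ± 178 CPM of Rspo3 and 40.1 ± 18.6 CPM of Lgr5, an R-spondin receptor at 4.09 CPM or less in the other tested classes.

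**Figure D2:**
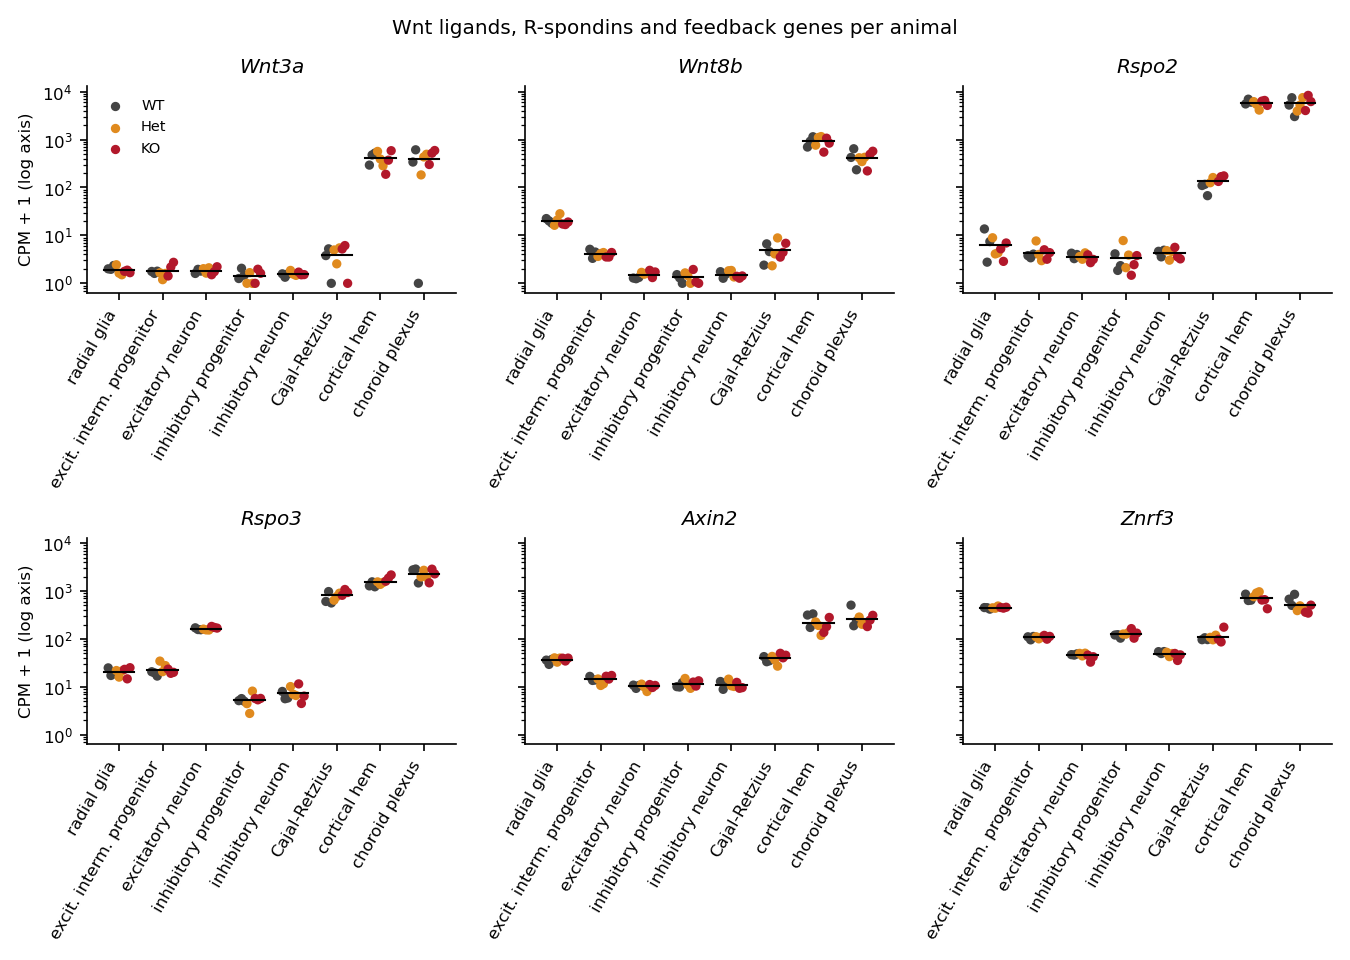
Levels of Wnt3a, Wnt8b, Rspo2, Rspo3, Axin2 and Znrf3 in 8 classes, 1 panel per gene. The y axis is CPM + 1 on a log scale, each dot is 1 animal (WT grey, Het orange, KO red) and the black line is the mean of the 9 animals. Wnt3a, Wnt8b and Rspo2 lie far higher in hem-like and choroid plexus-like nuclei, while Znrf3 in radial glia-like nuclei (448 CPM) lies near its own level there (723 and 506 CPM).

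The class comparisons measured this fall along the lineage on the same sums as the levels above, so they are not independent support. Animals were blocks in edgeR's quasi-likelihood test. A call required a Benjamini-Hochberg adjusted p below 0.05 over all genes and a log2 fold change beyond 1. Of 42 members tested between radial glia-like and excitatory neuron-like nuclei, 20 were higher in radial glia-like nuclei and 3 lower, where 16.2% of all genes were called higher and 17.3% lower. The median log2 fold change was 0.75 over the members and −0.02 over all genes. Receptors and nuclear factors made up much of this: 6 of 8 frizzled genes, 3 of 4 TCF/LEF genes, both E3 ligases and 3 of 4 secreted modulators tested were higher in radial glia-like nuclei. Among called members with at least 20 CPM that were higher in radial glia-like nuclei, the largest differences per role were 5.13 ± 0.05 (log2 ± SE, adjusted p = 3.66e-21 in edgeR) for Tcf7l1, 4.46 ± 0.10 for Fzd8, 4.11 ± 0.12 for Dkk3, 3.12 ± 0.09 for Rnf43, 3.05 ± 0.08 for Wnt7a, 2.35 ± 0.05 for Ror2, 1.60 ± 0.06 for Axin2 and 1.45 ± 0.04 for Lrp5. The 3 members lower in radial glia-like nuclei were Rspo3 at −3.45 ± 0.07, Wnt7b at −2.75 ± 0.08 and Apc at −1.71 ± 0.03. Dvl1, Dvl2, Dvl3, Gsk3b, Ctnnb1, Axin1, Lrp6, Ryk and Fzd3 were among those within 1 log2 unit.

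The fall began at the first step. From radial glia-like to intermediate progenitor-like nuclei 18 of 41 members fell and 3 rose, where 11.9% of all genes fell and 9.19% rose, and the median was −0.49 over the members and −0.01 over all genes. All 4 TCF/LEF genes fell, with Tcf7l1 at −2.90 ± 0.07, as did Dkk3 at −3.23 ± 0.09, Rnf43 at −2.50 ± 0.08, Wnt7a at −2.49 ± 0.08, Fzd9 at −2.11 ± 0.07, Ror2 at −1.67 ± 0.04 and Axin2 at −1.27 ± 0.06. Wnt7b at 1.62 ± 0.05, Wnt5a and Dkk2 rose. At the second step, from intermediate progenitor-like to excitatory neuron-like nuclei, 13 of 41 members fell and 2 rose, against 8.45% and 12.1% of all genes. Fzd8 fell by 2.73 ± 0.08, Tcf7l1 by 2.21 ± 0.06, Lrp5 by 1.62 ± 0.05, Wnt5a by 1.28 ± 0.09, Sfrp1 by 1.25 ± 0.03 and Znrf3 by 1.03 ± 0.04 on the log2 scale, while Rspo3 rose by 3.18 ± 0.07 and Wnt7b by 1.16 ± 0.04.

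In the inhibitory lineage more members fell than rose. From inhibitory progenitor-like to inhibitory neuron-like nuclei 12 of 36 members fell and 2 rose, against 10.3% and 16.2% of all genes. Tcf7l2 fell by 2.92 ± 0.18, Wnt5b by 2.34 ± 0.07, Fzd8 by 2.24 ± 0.13, Lrp5 by 1.99 ± 0.08, Znrf3 by 1.24 ± 0.06 and Sfrp1 by 1.02 ± 0.07, and Apc rose by 1.08 ± 0.04. Between the neuron classes 5 of 41 members were higher and 6 lower in inhibitory neuron-like nuclei, against 7.39% and 5.3% of all genes. The higher ones included Wnt7a at 2.76 ± 0.09 and the R-spondin receptor Lgr4 at 2.16 ± 0.07. The lower ones included Rspo3 at −4.81 ± 0.10, Wnt7b at −3.96 ± 0.19, Lef1 at −2.53 ± 0.08 and Fzd1 at −2.25 ± 0.10.

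Loss of MYT1L was then compared with WT within each class, the comparison that bears on whether Wnt genes are higher without this repressor. Genotype calls used edgeR on UMIs summed per animal, with an adjusted p below 0.05 over all genes and a log2 fold change beyond 0.2. In excitatory neuron-like nuclei 1 of 42 members tested, Lef1, was higher in KO and 0 lower, where 0.923% of all genes were called higher and 0.658% lower. At an unadjusted p below 0.05 there were 8 members (19.0%, against 13.7% of all genes), 25 of 42 had a fold change above 0, and the median log2 fold change was 0.05 over the members and −0.01 over all genes. Fzd5, Fzd6, Fzd10, Notum and Wnt4 were too low to be tested in this class. A change in the mix of nuclei within a class and a change of RNA per nucleus cannot be told apart in such sums.

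Lef1 (ENSMUSG00000027985.14, GRCm38 chr3:131110471-131224356, plus strand) had 29.4, 31.6 and 31.6 CPM in the excitatory neuron-like nuclei of WT, 37.6, 38.2 and 34.0 CPM in Het and 58.9, 47.4 and 44.2 CPM in KO. The genotypes did not overlap: every KO animal lay above every Het animal, and every Het above every WT. Means ± SD (n = 3 each) were 30.9 ± 1.30, 36.6 ± 2.29 and 50.2 ± 7.76 CPM. KO was higher than WT by 0.72 ± 0.11 on the log2 scale (SE, adjusted p = 0.00613 in edgeR), and DESeq2 gave the same size with an adjusted p of 5.66e-07. Het was higher by 0.26 ± 0.11, which was not called (adjusted p = 1.00 in edgeR). The transcripts Gm42449 on the same strand and Gm43352 on the other strand overlap Lef1, and the strand setting of the counts was not given in the sources used here.

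**Figure D3:**
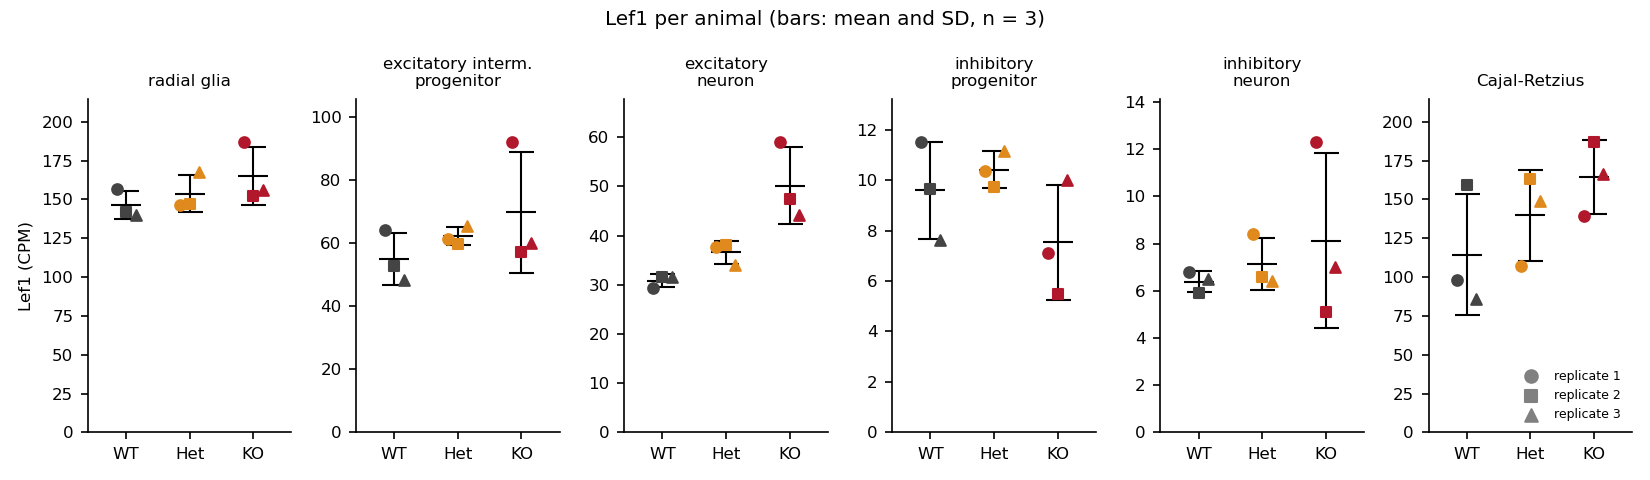
Lef1 CPM by genotype in 6 classes, 1 panel per class, with 1 symbol per animal (circle, square and triangle for replicate numbers 1, 2 and 3) and bars for mean ± SD (n = 3 animals). In excitatory neuron-like nuclei the KO animals (44.2 to 58.9 CPM) lie above the Het animals (34.0 to 38.2 CPM) and these above the WT animals (29.4 to 31.6 CPM), while WT and KO animals overlap in the other panels.

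KO 1 was the highest animal and widened the difference. Without the 3 animals numbered 1, an alternative chosen after the data were seen, Lef1 was higher in KO by 0.54 (adjusted p = 0.0139 in edgeR), and leaving out single animals gave adjusted p values from 0.00301 to 0.0274. In run 1 WT had 34.9, 36.5 and 37.8 CPM, Het 37.6, 41.8 and 37.8 CPM and KO 69.4, 50.9 and 47.6 CPM. In run 2, from which more nuclei of each animal were kept, WT had 27.4, 30.7 and 30.2 CPM, Het 37.6, 37.0 and 32.0 CPM and KO 54.4, 46.4 and 43.2 CPM. KO lay above Het and WT in both runs. Run 1 alone gave 0.63 (adjusted p = 0.190 in edgeR, not called), and run 2 alone gave 0.72 (adjusted p = 0.00560).

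The summed markers of other cell types were read in the excitatory neuron-like class. The summed level of 10 radial glia markers, none of them at 0, ran from 963 to 1048 CPM in WT, 915 to 1022 CPM in Het and 996 to 1021 CPM in KO. Cajal-Retzius markers (8) summed to 171 to 233, 184 to 211 and 123 to 213 CPM, and endothelial markers (7) to 8.75 to 11.1, 9.22 to 11.7 and 6.11 to 12.8 CPM. All of these ranges overlapped. KO 1 was the highest of the 9 animals for endothelial markers (12.8 CPM), mural and fibroblast markers (8 genes, 7.93 CPM), inhibitory neuron markers (12 genes, 293 CPM) and diencephalic markers (7 genes, 31.6 CPM). Without KO 1 Lef1 was higher in KO by 0.59 (adjusted p = 0.0124 in edgeR). Lef1 was highest in other nuclei, at 787 ± 242 CPM in an endothelial-like cluster of 62 nuclei and 552 ± 181 and 399 ± 96.9 CPM in 2 small intermediate progenitor-like clusters.

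The excitatory neuron-like clusters divide the nuclei in which Lef1 was called, so they show where the difference lay and add no independent support. All 10 of them tested had a KO fold change above 0. In 7 every KO animal lay above every WT animal, where 6.4% of gene and cluster pairs of at least 10 CPM did and 7.88% lay below, and 3 were called, of which 2 are described here. In 1 cluster of 4024 nuclei led by Btbd11, Kcna1 and Ldb2, Lef1 had 23.7, 22.3 and 27.5 CPM in WT, 32.4, 34.6 and 18.6 CPM in Het and 52.9, 54.7 and 42.6 CPM in KO, a KO difference of 1.05 ± 0.20 (adjusted p = 0.00555 in edgeR). In a cluster of 4470 nuclei led by Slit3, Nr4a3 and Crtac1 it had 82.2, 74.4 and 70.1 CPM in WT, 76.3, 81.3 and 84.5 CPM in Het and 111.5, 119.5 and 110.7 CPM in KO, 0.62 ± 0.11 higher in KO (adjusted p = 0.0101 in edgeR). KO animals did not overlap the other groups in either cluster. The call in the first cluster was lost without the animals numbered 1 (0.98, adjusted p = 0.0657 in edgeR). That in the second was lost without WT 3 (0.57, adjusted p = 0.0785 in edgeR) or KO 2 (0.57, adjusted p = 0.0831) and with no upper limits on UMIs and genes (0.49, adjusted p = 0.0792), and neither was called in run 1 alone. The third call was lost without WT 1, WT 2, KO 2 or all animals numbered 1 and in each run alone.

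The RefSeq starts of Lef1 were read for the core letters bound by MYT1 family proteins and by TCF/LEF proteins, because the gene was the one called. The 250 bases before 3 of its 4 annotated starts are printed 5′ to 3′ on the plus strand (RefSeq, GRCm38.p6), with AAGTT (the MYT1 family core) and CTTTG (the TCF/LEF core) on either strand in capitals.
Lef1 start 1, chr3:131110047-131110296: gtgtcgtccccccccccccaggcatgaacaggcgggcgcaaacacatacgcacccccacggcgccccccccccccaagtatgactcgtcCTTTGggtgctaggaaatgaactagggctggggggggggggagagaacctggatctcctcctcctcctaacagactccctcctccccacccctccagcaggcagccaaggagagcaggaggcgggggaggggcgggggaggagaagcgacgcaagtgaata
Lef1 start 3, chr3:131112541-131112790: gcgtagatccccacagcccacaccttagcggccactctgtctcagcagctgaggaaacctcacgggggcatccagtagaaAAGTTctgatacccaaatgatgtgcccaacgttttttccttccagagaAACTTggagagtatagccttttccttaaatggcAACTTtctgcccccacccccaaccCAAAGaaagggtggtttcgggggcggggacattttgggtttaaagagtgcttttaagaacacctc
Lef1 start 4, chr3:131156044-131156293: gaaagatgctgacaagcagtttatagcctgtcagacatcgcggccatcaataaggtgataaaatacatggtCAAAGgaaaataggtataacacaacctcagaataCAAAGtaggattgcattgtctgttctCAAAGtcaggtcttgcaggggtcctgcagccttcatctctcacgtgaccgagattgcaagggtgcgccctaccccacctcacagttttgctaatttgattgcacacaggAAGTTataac
AAGTT on either strand (AACTT when read on the opposite one) was found 0 times before start 1, 3 times before start 3 and 1 time before start 4. CTTTG on either strand (CAAAG when read on the opposite one) was found 1, 1 and 3 times. Start 2, whose window overlaps that of start 1 and is not printed, had 0 of AAGTT and 2 of CTTTG. These letters are common: 35.3% of 32841 windows of the same length before RefSeq starts held AAGTT on either strand and 48.6% held CTTTG, and the 39 windows of the 30 members matched held them at 38.5% and 46.2%. A match is a description of letters in a window and shows no binding.

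Of the finer clusters 42 were large enough for a test, and 1081 tests of a member in a cluster gave 5 calls in KO, all higher, where 0.308% of all gene and cluster tests were called. DESeq2 gave 4, where it called 0.218% of all tests. At an unadjusted p below 0.05 were 82 of the member tests (7.59%) and 6.38% of all tests. The number of calls changed with single animals: 1 without KO 2, 2 without WT 1 and 8 without KO 1, where 0.143%, 0.171% and 0.238% of all gene and cluster tests were called. It was 12 with the replicate number as a block (0.841% of all tests) and 0 in run 1 alone (0.0381%). Beside the 3 calls of Lef1, both others were in an excitatory neuron-like cluster of 2220 nuclei led by Il1rapl2, Hs3st2 and Nr4a2. There Rspo3 (chr10:29452416-29535867, minus strand) had 85.4, 114 and 85.6 CPM in WT, 140.1, 133 and 118 CPM in Het and 155, 137 and 142 CPM in KO. Het and KO animals all lay above WT, and KO was higher by 0.61 ± 0.14 (adjusted p = 0.0201 in edgeR). Ror2 (chr13:53109312-53286124, minus strand) had 29.2, 28.7 and 36.6 CPM in WT, 35.9, 35.0 and 43.2 CPM in Het and 41.2, 71.8 and 47.7 CPM in KO. KO did not overlap WT and was higher by 0.80 ± 0.22 (adjusted p = 0.0463 in edgeR). Both calls were lost when some single animals were left out. Rspo3 lost its call without WT 1, WT 3, KO 2 or KO 3 (0.54 to 0.64, adjusted p from 0.0577 to 0.0882 in edgeR) and without all animals numbered 1 (0.49, adjusted p = 0.138). Ror2 lost its call without WT 1, WT 2, WT 3, KO 2 or KO 3 (0.54 to 0.94, adjusted p from 0.0591 to 0.317 in edgeR), without all animals numbered 1 (0.85, adjusted p = 0.0735), with only WT and KO animals in the fit (0.81, adjusted p = 0.0523) and in DESeq2 (adjusted p = 0.135). Over the whole excitatory neuron-like class Rspo3 had 169.8, 156 and 155 CPM in WT and 182, 173 and 168 CPM in KO, a difference of 0.14 that was not called (adjusted p = 0.314 in edgeR).

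Other members of the excitatory neuron-like class, higher or lower in KO, had low unadjusted p values but were not called. Wnt7a (chr6:91363981-91411363, minus strand) had 7.22, 6.01 and 6.22 CPM in WT, 9.99, 7.70 and 7.26 CPM in Het and 8.68, 8.40 and 8.78 CPM in KO. WT lay below all Het and KO animals, with a KO difference of 0.44 ± 0.13 (adjusted p = 0.119 in edgeR) and a Het difference of 0.37 (adjusted p = 1.00). Tcf7l1 had 10.2, 8.76 and 8.11 CPM in WT and 11.1, 10.3 and 11.1 CPM in KO, 0.29 on the log2 scale (adjusted p = 0.253 in edgeR). Ror1, a receptor of Wnt5a like Ror2, had 3.54, 3.37 and 3.87 CPM in WT, 4.60, 4.09 and 5.32 CPM in Het and 8.08, 4.32 and 4.78 CPM in KO. WT was again lowest and KO 1 the highest, with a difference of 0.67 (adjusted p = 0.156 in edgeR). Ror1 was highest in a mural and fibroblast-like cluster of 92 nuclei, at 1845 CPM over the cluster. Of these nuclei 63 came from KO 1 and 28 from Het 1. KO 1 also had the highest sum of mural and fibroblast markers in excitatory neuron-like nuclei (7.93 CPM). The part of such nuclei in the Ror1 difference was not tested. With no filter on low counts Ror1 was called in KO at 0.67 (adjusted p = 0.00423 in edgeR) and Tcf7l2 at 0.56 (adjusted p = 0.00171). That setting called 0.516% of all genes in KO over the classes. Dkk3 went the other way, with 3.77, 3.44 and 2.20 CPM in WT, 2.41, 2.40 and 2.54 CPM in Het and 1.85, 1.93 and 2.10 CPM in KO. All KO animals lay below WT (−0.66 ± 0.20, adjusted p = 0.143 in edgeR). Its KO difference was −0.71 in inhibitory neuron-like (adjusted p = 0.829 in edgeR) and −0.67 in Cajal-Retzius-like nuclei (adjusted p = 0.644), where the Het animals all lay below WT (−1.15, adjusted p = 1.00). Among members below 1 CPM, Fzd4 had a KO difference of −1.13 (adjusted p = 0.195 in edgeR) and Wnt8b one of 1.13 (adjusted p = 0.163).

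The replicate number of an animal carried part of the spread, and with the number as a block more genes were called. In excitatory neuron-like nuclei that fit called 7.45% of all genes in KO and 5 of the 42 members, all higher: Lef1 at 0.71 (adjusted p = 1.16e-05 in edgeR), Wnt7a at 0.44 (adjusted p = 0.0161), Ror1 at 0.64 (adjusted p = 0.0261), the receptor Fzd2 at 0.25 (adjusted p = 0.0146) and Tcf7l2 at 0.55 (adjusted p = 0.0364). Tcf7l2 also marks thalamic neurons, and KO 1, its highest KO animal, had the highest sum of diencephalic markers in this class (31.6 CPM). KO 1 was also the highest animal for Ror1 and for the sum of mural and fibroblast markers (7.93 CPM). Their part in the result was not tested. Fzd2 (chr11:102604396-102608058, plus strand) had 26.3, 38.7 and 39.2 CPM in WT, 25.9, 40.6 and 37.4 CPM in Het and 30.5, 44.1 and 47.3 CPM in KO. KO was the highest genotype within each replicate number, while genotypes overlapped when numbers were ignored (0.24, adjusted p = 0.646 in edgeR without the block). Over all alternatives the KO difference of Fzd2 ran from 0.08 to 0.41.

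The feedback targets other than Lef1 did not pass the test in this class. Axin2 (chr11:108920349-108950783, plus strand) had 9.89, 8.31 and 9.68 CPM in WT, 10.4, 8.99 and 7.01 CPM in Het and 10.2, 8.72 and 9.73 CPM in KO, a KO difference of 0.06 (adjusted p = 0.899 in edgeR). In run 1 alone it was 0.40 (adjusted p = 0.730 in edgeR) and in run 2 alone 0.0044 (adjusted p = 0.996). Nkd1 (chr8:88521354-88594884, plus strand) had 10.1, 12.6 and 11.9 CPM in WT and 11.3, 11.6 and 15.2 CPM in KO (0.16, adjusted p = 0.657 in edgeR). Genotypes overlapped for both. Znrf3 (chr11:5276324-5444847, minus strand) had 46.1, 45.1 and 47.8 CPM in WT, 49.0, 43.3 and 49.5 CPM in Het and 45.02, 31.8 and 41.6 CPM in KO, with all KO animals below WT, KO 1 by the least and KO 2 by the most (−0.21, adjusted p = 0.369 in edgeR). Rnf43 was at or below 2.31 CPM in every animal (0.22, adjusted p = 0.709 in edgeR), and Notum was too low to be tested.

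Ctnnb1, Wnt7b and Fzd3 had KO differences of 0.08 or less. Ctnnb1 had 195, 204 and 201 CPM in WT, 195, 193 and 196 CPM in Het and 182, 211 and 213 CPM in KO (0.03, adjusted p = 0.887 in edgeR). Wnt7b had 83.7, 114 and 116 CPM in WT, 82.1, 103.5 and 97.6 CPM in Het and 79.5, 118 and 114 CPM in KO (0.01, adjusted p = 0.984 in edgeR). Fzd3 had 228, 305 and 279 CPM in WT, 229, 309 and 265 CPM in Het and 246, 318 and 287 CPM in KO (0.08, adjusted p = 0.853 in edgeR). The genotypes overlapped for all 3 genes, and for Wnt7b and Fzd3 the animals numbered 1 were the lowest of their genotype.

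**Figure D4:**
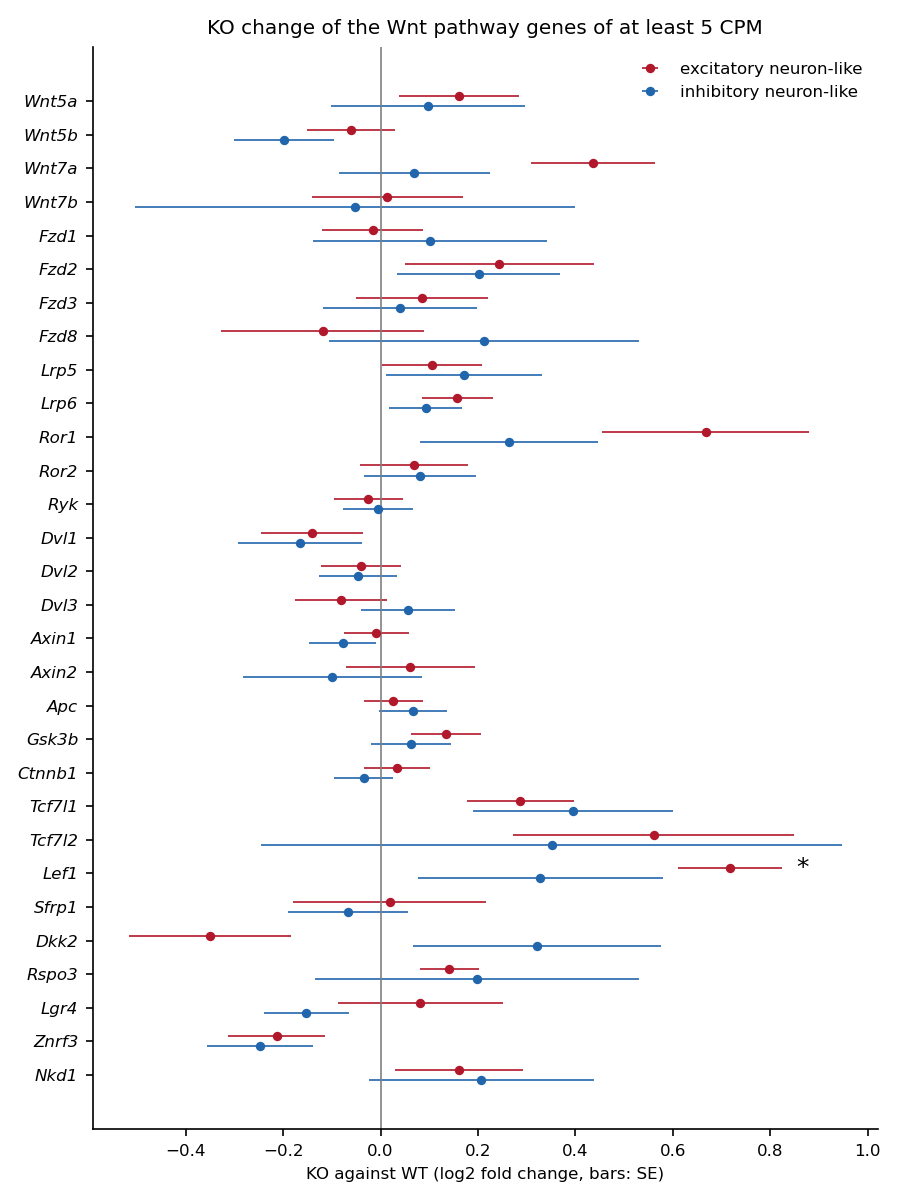
KO against WT log2 fold change ± SE for 30 members with at least 5 CPM, in excitatory neuron-like (red) and inhibitory neuron-like nuclei (blue). A star marks a call. The vertical line at 0 is no change, and only Lef1 in excitatory neuron-like nuclei (0.72 ± 0.11) carries a star.

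Het showed no called member in any of the 6 tested classes, in edgeR or DESeq2, and 0% of all genes were called there in edgeR. The 1081 tests in clusters gave 0 calls for Het in edgeR and in DESeq2, where 0.000237% of all gene and cluster tests were called in edgeR and 0.000946% in DESeq2. At an unadjusted p below 0.05 were 36 of the member tests (3.33%) and 3.60% of all tests. In the classes, 4 of 42 members were at an unadjusted p below 0.05 in nuclei of the excitatory neuron-like class (3.5% of all genes) and 3 of 41 of the inhibitory neuron-like (1.80%). There were 2 of 26 in Cajal-Retzius-like (3.70%), 1 of 39 in intermediate progenitor-like (2.53%), 1 of 41 in radial glia-like (2.02%) and 0 of 33 in inhibitory progenitor-like nuclei (2.57%). Tcf7l2 (chr19:55741820-55933654, plus strand) was among them through 1 animal. In inhibitory neuron-like nuclei it had 7.13, 6.10 and 5.97 CPM in WT, 40.2, 6.86 and 7.53 CPM in Het and 11.99, 5.37 and 7.51 CPM in KO. Het 1 stood far above all others in both runs, at 27.4 and 43.7 CPM. The Het difference was 1.51 ± 0.56 with Het 1 and 0.20 without it (adjusted p = 1.00 for both in edgeR), and 1.54 without the cluster of 274 nuclei, nearly all of Het 1. The diencephalic neuron-like class that came from Het 1 had 2775 CPM of Tcf7l2, and diencephalic markers summed to 10.5 CPM in the inhibitory neuron-like nuclei of Het 1 against 3.26 to 7.12 CPM in the other animals. Their part in the result was not tested. In excitatory neuron-like nuclei Tcf7l2 had 8.08, 7.35 and 6.89 CPM in WT, 21.6, 9.39 and 8.43 CPM in Het and 13.7, 9.0 and 10.1 CPM in KO, a Het difference of 0.82 ± 0.29 with Het 1 and 0.28 without it. Diencephalic markers there summed to 28.6 CPM in Het 1 and 31.6 CPM in KO 1, against 21.6 to 27.3 CPM in the other animals. With no filter on low counts Tcf7l2 was called for Het in both classes, at 1.52 in inhibitory (adjusted p = 1.52e-23 in edgeR, 0.115% of all genes called) and 0.82 in excitatory neuron-like nuclei (adjusted p = 5.09e-07, 0.134%).

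No member was called in KO in inhibitory neuron-like nuclei (0 of 41, background 0.0158%), radial glia-like nuclei (0 of 41, 0%), intermediate progenitor-like nuclei (0 of 39, 0%) or inhibitory progenitor-like nuclei (0 of 33, 0%), with edgeR or DESeq2. Members at an unadjusted p below 0.05 numbered 2, 2, 2 and 0 in that order, where 5.98%, 2.92%, 3.70% and 2.58% of all genes were. In inhibitory neuron-like nuclei Znrf3 had 53.4, 48.7 and 53.6 CPM in WT, 51.8, 41.8 and 48.7 CPM in Het and 48.9, 34.6 and 45.6 CPM in KO. KO overlapped WT by 1 animal (−0.25, adjusted p = 0.829 in edgeR). Wnt5b had 9.68, 9.26 and 9.42 CPM in WT and 7.54, 7.77 and 8.81 CPM in KO (−0.20, adjusted p = 0.851 in edgeR), and Tcf7l1 had 10.7, 8.36 and 8.67 CPM in WT and 14.4, 10.3 and 11.3 CPM in KO (0.40, adjusted p = 0.851 in edgeR).

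In radial glia-like nuclei Nkd1 had 14.7, 13.8 and 13.6 CPM in WT, 17.2, 11.3 and 17.5 CPM in Het and 21.5, 15.7 and 19.9 CPM in KO. KO lay above WT in all animals (0.44 ± 0.16, adjusted p = 1.00 in edgeR). Ror2 there had 185, 167 and 159 CPM in WT, 191.5, 183 and 189.7 CPM in Het and 185, 177 and 185 CPM in KO, with overlap. These differences did not pass the correction.

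In the other tested classes Lef1 was not called in the fit of all 9 animals. In radial glia-like nuclei it had 157, 142 and 140.3 CPM in WT, 146, 147 and 168 CPM in Het and 187, 152 and 156 CPM in KO, a KO difference of 0.19 (adjusted p = 1.00 in edgeR). In intermediate progenitor-like nuclei it had 64.1, 52.7 and 48.2 CPM in WT, 61.5, 59.9 and 65.6 CPM in Het and 92.0, 57.3 and 60.1 CPM in KO, a difference of 0.36 (adjusted p = 1.00 in edgeR). WT and KO overlapped in both classes, and KO 1 was the highest animal. The part of the uneven intermediate progenitor-like cluster of 849 nuclei in these values was not tested. Within each replicate number KO lay above WT in both classes, and with the number as a block Lef1 was still not called (0.18, adjusted p = 0.759 in edgeR, and 0.34, adjusted p = 0.455). In inhibitory neuron-like nuclei it had 6.78, 5.92 and 6.48 CPM in WT, 8.39, 6.58 and 6.41 CPM in Het and 12.3, 5.09 and 7.03 CPM in KO, a difference of 0.33 (adjusted p = 0.908 in edgeR).

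Whether the KO change differed between the neuron classes was tested as an interaction. Of 44 members 0 were called in edgeR and 0 in DESeq2, where 0.0744% of all genes were called, and 4 had an unadjusted p below 0.05. Lef1 changed by 0.42 ± 0.19 more in excitatory than in inhibitory neuron-like nuclei (adjusted p = 0.771 in edgeR), so its change was not shown to differ between them. Of the 28 clusters of all classes in which Lef1 was tested, 24 had a KO fold change above 0. In 10 of them all KO animals lay above all WT animals and in 2 all lay below, where 5.09% and 6.37% of gene and cluster pairs of at least 10 CPM did. Both clusters with lower KO values were unnamed, one led by Otx2os1, Ano1 and Otx2 (−0.46, adjusted p = 1.00 in edgeR) and one led by Samd3, Sim1 and Car10 (−0.49, adjusted p = 0.838). The first of these had 9 of 10 radial glia markers raised, though it was not in the radial glia-like class. The inhibitory progenitor-like cluster had −0.37.

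Cajal-Retzius-like nuclei had 5 of 26 members at an unadjusted p below 0.05 in KO (9.30% of all genes were), and 0 called where 0.371% of all genes were called. DESeq2 called 0 too, where it called 0.301% of all genes. Rspo2 (chr15:43020794-43170826, minus strand) had the lowest p. It had 109, 115 and 66.4 CPM in WT, 124.5, 160.2 and 144 CPM in Het and 132.5, 167 and 173 CPM in KO. All Het and KO animals lay above all WT animals, with a KO difference of 0.68 ± 0.17 (adjusted p = 0.0829 in edgeR) and a Het difference of 0.54 ± 0.17 (adjusted p = 1.00). In the fit blocked by replicate number, which called 1.14% of all genes, Rspo2 was called at 0.69 (adjusted p = 0.0236 in edgeR). It was also called without the upper limits on UMIs and genes per nucleus (0.90, adjusted p = 0.0108), as was Lef1 (0.76, adjusted p = 0.0333), in a fit that called 0.763% of all genes. With no filter on low counts (0.397% of all genes called) Rspo2 was called at 0.71 (adjusted p = 0.00422 in edgeR) and Rspo3 at 0.42 (adjusted p = 0.0261). Without WT 2, 3 members and 0.639% of all genes were called in this class: Rspo2 at 0.83 (adjusted p = 0.0491 in edgeR), Lef1 at 0.82 (adjusted p = 0.0487) and Rspo3 at 0.69 (adjusted p = 0.0255).

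Rspo3 in Cajal-Retzius-like nuclei had 606, 974 and 562.5 CPM in WT, 643, 766 and 899.8 CPM in Het and 814, 1076 and 932 CPM in KO, with WT 2 among the highest (0.40, adjusted p = 0.428 in edgeR). Lef1 had 98.2, 159 and 86.2 CPM in WT, 107, 163 and 149 CPM in Het and 139, 187 and 166.5 CPM in KO (0.50 ± 0.19, adjusted p = 0.384 in edgeR), and WT 2 again lay among the KO animals. Markers of the cortical hem, where Rspo2 was highest, summed to 75.4 to 97.0 CPM in WT, 77.9 to 115 CPM in Het and 96.5 to 124 CPM in KO in these nuclei, with 1 of 7 markers at 0. Their part in the Rspo2 difference was not tested, and each animal had only 147 to 309 such nuclei.

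A wider list of 67 other Wnt pathway genes, of which 66 were in the count matrices, put together in the same way as the members with results known, gave 1 KO call in the 6 classes and, beside the cluster that is the same as that class, 1 in the clusters. Wls, the carrier that Wnt ligands need to leave the cell, had 23.7, 17.3 and 17.95 CPM in WT, 20.5, 17.1 and 19.4 CPM in Het and 36.4, 46.3 and 47.6 CPM in KO in Cajal-Retzius-like nuclei. KO did not overlap the other groups, and the difference was 1.14 ± 0.25 (adjusted p = 0.0476 in edgeR, 1 of 34 tested, where 0.371% of all genes were called). Calls over all genes in this class went from 32 to 4 without WT 1 and to 10 without KO 2. The part of the hem marker sums in the Wls difference was not tested. Prickle2, a planar cell polarity gene, was lower in KO in an excitatory neuron-like cluster of 4173 nuclei led by Tafa1, Tafa2 and 6530403H02Rik. It had 259, 281 and 266 CPM in WT, 254, 221 and 219.9 CPM in Het and 208, 217 and 189 CPM in KO, a difference of −0.38 ± 0.10 (adjusted p = 0.0360 in edgeR, 1 of 34 tested, where 0.986% of all genes were called lower). Whether the calls of Wls and Prickle2 held under the alternative settings is not given here. Between classes, 11 of 46 genes of the wider list were higher and 11 lower in radial glia-like than in excitatory neuron-like nuclei (16.2% and 17.3% of all genes). Their median log2 fold change was −0.14. From radial glia-like to intermediate progenitor-like nuclei 6 rose and 12 fell of 43 (9.19% and 11.9% of all genes). At the next step, to excitatory neuron-like nuclei, 6 rose and 3 fell of 41 (12.1% and 8.45%), with a median of 0.19. From inhibitory progenitor-like to inhibitory neuron-like nuclei 9 rose and 4 fell of 41 (16.2% and 10.3%), with a median of 0.26. In these later steps more of the wider list rose than fell, unlike the members. Whether the lists differ was not tested.

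Several receptors and secreted antagonists fell apart by replicate number. In radial glia-like nuclei Fzd2 ran from 65.0 to 94.0 CPM in the 3 animals numbered 1 (1 of each genotype) and from 156 to 195 CPM in the 6 others. Sfrp1 ran from 238 to 314 CPM against 578 to 646 CPM. Neither pair of ranges overlapped, and the same order held in both runs. Fzd2 also differed by run, with run 2 above run 1 in every animal, as in WT 2 at 204 and 122 CPM. Run was not part of the fits. Of the 34 members with at least 10 CPM in radial glia-like nuclei, 9 had all 3 animals numbered 1 below all others (Dkk3, Fzd1, Fzd2, Fzd3, Fzd7, Fzd9, Ryk, Sfrp1 and Sfrp2) and 2 above (Apc and Dvl3), where 13.9% of all genes lay apart in either direction. In excitatory neuron-like nuclei it was 5 below and 0 above of 23, against 12.6% of all genes. What the number stands for is not given in the labels, so litter, day or stage cannot be told apart.

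**Figure D5:**
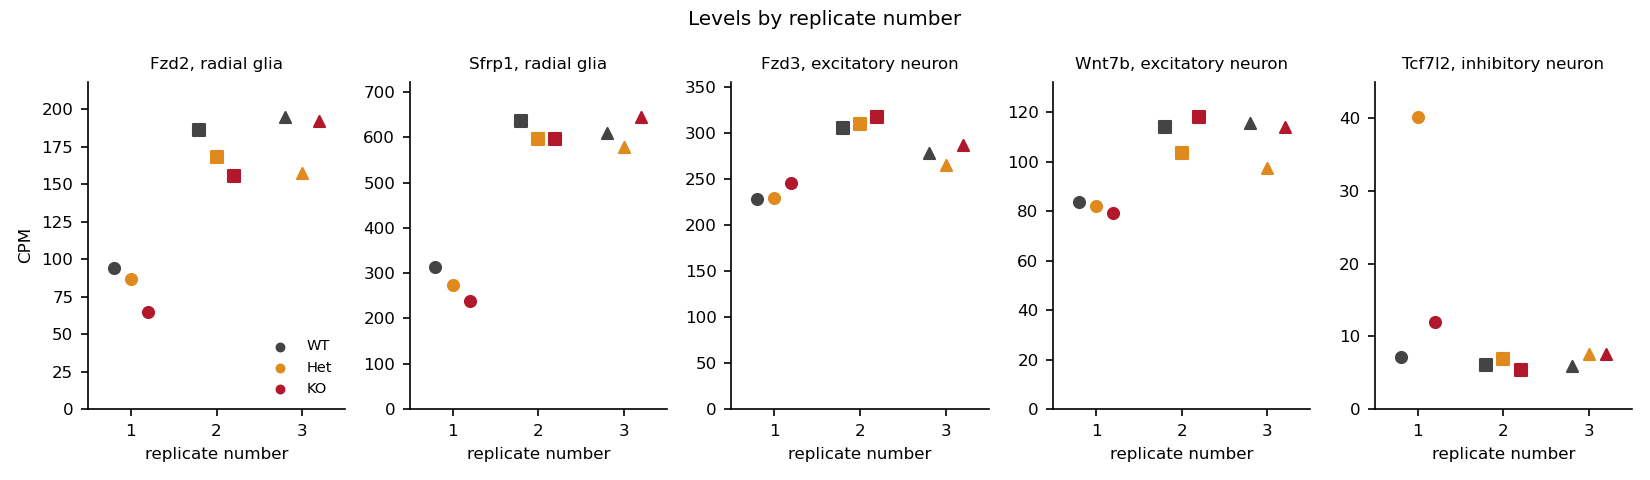
CPM of Fzd2 and Sfrp1 in radial glia-like, Fzd3 and Wnt7b in excitatory neuron-like and Tcf7l2 in inhibitory neuron-like nuclei, with 1 symbol per animal, the replicate number along the x axis and the genotype by colour (WT grey, Het orange, KO red). For Fzd2 (65.0 to 94.0 CPM) and Sfrp1 (238 to 314 CPM) the animals numbered 1 lie below the others in every genotype, and Tcf7l2 in Het 1 (40.2 CPM) stands alone.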

How the data were processed

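Single-nucleus RNA was counted in 18 libraries of 9 E14 forebrains. The authors mapped reads to mm10 and counted them with the ScaleRna pipeline, which also called nuclei, and deposited matrices of expected counts (estimated UMI counts, with 6.7 to 8.71% of entries not whole). The annotation release and the strand setting were not given in the sources used here. The submitters' processing notes name Seurat 4.3.0, DESeq2 1.38.3 and Scanpy 1.12.0.

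With the limits of the study's methods, nuclei were kept where they had 300 to 3000 genes, 800 to 6000 UMIs, no more than 1% of UMIs from mitochondrial genes and a log gene number that was at least 0.9 times the log UMI number, and the 5% of barcodes with the highest Scrublet score in each library were removed as likely doublets. The doublet step differs from the study's, which used DoubletFinder before these limits. Here 200916 nuclei were within the limits and 194628 were kept, both fewer than the study states. Clustering in scanpy 1.11.5 used 3000 variable genes without the Wnt genes, Myt1l or sex-linked genes, 50 components, 20 neighbours and Leiden resolution 2 (seed 0). The resolution (1 in an earlier run), the splitting of 2 mixed clusters into 7 parts each and the details of naming were set after the data were seen. There were 61 clusters, 12 named classes and 8 unnamed clusters.

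Expected counts were summed per animal over both runs and per class or cluster, where every animal had at least 20 nuclei, and rounded to whole numbers. Genotypes were compared in edgeR 4.0.16 (R 4.3.3; filterByExpr, TMM, quasi-likelihood test), with all 9 animals in one fit per class. Classes were compared with animal as a block. SE is the fold change divided by the square root of F. Adjusted p values are Benjamini-Hochberg over all genes of a fit. Totals per class and animal ran from 556987 UMIs in Cajal-Retzius-like to 23500508 in excitatory neuron-like nuclei, and counting error is included in the spread between animals. On counts simulated for KO in excitatory neuron-like nuclei (18440 genes, 100 changed at each size), 61% of changes of log2 0.5 and 99% of changes of log2 1 were called, with 10 false calls. The changed genes were drawn only from those above a minimum mean count. These shares therefore do not cover the lowest genes or the classes with fewer UMIs.

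The replicate number was checked as a pairing: deviations of same-numbered animals correlated at 0.106 to 0.272 in excitatory neuron-like, 0.127 to 0.310 in inhibitory neuron-like, 0.143 to 0.316 in radial glia-like and 0.133 to 0.256 in intermediate progenitor-like nuclei. The lowest correlation was 0.0335 in Cajal-Retzius-like and 0.0706 in inhibitory progenitor-like nuclei. Whether the numbers mark litters is not stated in the labels.

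The members, the wider Wnt list and the marker lists were chosen with earlier results of these data known. Named are members called in a genotype contrast, the 3 with the lowest p in KO in radial glia-like and both neuron-like classes (at least 5 CPM), Axin2, Lef1, Nkd1, Notum, Znrf3, Rnf43, Tcf7l2, Ctnnb1, Wnt7b and Fzd3, and, between classes, the largest called changes per role (at least 20 CPM). Others were named after their values were seen. Alternatives were leaving out each animal, the replicate block, DESeq2 1.42.0, RLE scaling, no filter on low counts, each run alone, the compared animals only, no upper limits and no doublet removal. Positions come from GENCODE annotation of GRCm38, in which 46 of the 47 IDs matched with their version and 27 members overlap another gene. Sequences come from RefSeq. One called cluster is not reported here.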

Additional observations from a re-analysis of the deposited data

Results flagged for a closer look

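Het 1 held 740 nuclei of a diencephalic neuron-like class that had 1 nucleus in all other animals together. It stands here as a signal outside the comparisons, since no other animal had this class in number. Among the Wnt members it had Tcf7l2 at 2775 CPM over the class, against 226 ± 12.2 CPM in radial glia-like and 10.96 ± 11.1 CPM in inhibitory neuron-like nuclei. It also had 233 CPM of Lef1 and 77.5 CPM of Nkd1. Next for Tcf7l2 were the unnamed clusters led by Otx2os1, Ano1 and Otx2 (538 ± 80.0 CPM) and by Egfr, Otx2os1 and Lrp2 (418 ± 69.6 CPM). The comparison was not tested, because the class came from 1 animal.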

How the results depend on the processing

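Of 532 settings run for 28 values of named members, 506 kept direction and side of the threshold, 1 lost the call, 14 gained one and 11 turned direction. Lef1 in excitatory neuron-like nuclei was called in KO in all settings except run 1 alone. Member calls for KO in classes were 1 in the fit as reported (0.369% of all genes called over the classes), 1 to 4 when single animals were left out (4 without WT 2, 0.223%), 5 with no filter on low counts (0.516%), 0 in run 1 alone (0.00336%), 3 with no upper limits (0.385%) and 6 with the replicate block (1.86%). For Het they were 0, and 2 with no filter, both Tcf7l2 (0.0774%). In clusters KO gave 5, and 1 to 8 without single animals (2 without WT 1, 8 without KO 1, 1 without KO 2), 3 without the animals numbered 1 (0.202%), 15 with no filter (0.238%), 0 in run 1 alone and 12 with the replicate block (0.841%). Het gave 0 in clusters, 5 with no filter (0.0366%) and 1 with the replicate block (0.013%). Beside the members named in the report, the block changed no call in a class. From inhibitory progenitor-like to inhibitory neuron-like nuclei 14 members were called, and 9 in run 1 alone. The other class comparisons gave 22 to 25, 17 to 21, 10 to 16 and 10 to 13 calls over all settings, and the interaction 0 throughout. For these class comparisons the shares of all genes under the alternatives are not given here. Whether the member counts moved with those shares is therefore not shown.

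Values that turned below 0 in excitatory neuron-like nuclei were Nkd1 at −0.0175 in run 1 alone and Wnt7b at −0.0044 in run 2 alone. With single animals left out, Axin2 ran from −0.0001 to 0.1057, Ctnnb1 from −0.0152 to 0.1038, Fzd3 from −0.0296 to 0.2018 and Wnt7b from −0.1262 to 0.1749, and Lef1 in inhibitory neuron-like nuclei from −0.0541 to 0.5790. The lowest values were without WT 2, KO 2, WT 1, WT 1 and KO 1. Lef1 in inhibitory neuron-like nuclei was −0.0217 without the animals numbered 1. The causes of these changes, the smaller counts in run 1 alone included, were not tested. With 3 animals per genotype, a missing call does not show that a gene was unchanged. Counts of the lowest members, of hem-like and of choroid plexus-like nuclei were small, and RNA from outside the nucleus was not separated from them.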
